A study of Mus musculus with 6 samples.

Results

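Polycomb, SWI/SNF and related complexes are the machines that package, mark and move nucleosomes beside NuRD, the nucleosome remodelling and deacetylase complex that was targeted in these kidneys. The genes described here are 53 chromatin regulators outside NuRD, taken by symbol from a table of 23219 genes: 5 of Polycomb repressive complex 2 (PRC2), 15 of Polycomb repressive complex 1 (PRC1), 17 of SWI/SNF, 6 of the CHD remodellers, 3 of ISWI and INO80, and 7 of the corepressor complexes. All 53 symbols were found, and all 53 passed the filter on low values. Whole mouse kidneys were taken at embryonic day 17 (E17) for RNA sequencing. The 3 control kidneys were Mta2flx/flx (numbered 5, 7 and 11) and the 3 mutant kidneys were Six2Cre Mta2flx/flx (numbered 6, 8 and 9), so both groups carried the floxed alleles and only the mutants carried Cre. Six2Cre acts in the nephron progenitors, and the collecting duct, most stroma and the vessels of a mutant kidney therefore keep Mta2. A whole-kidney level mixes all of these cells, and fewer cells of a type cannot be told apart from less RNA per cell.

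PRC2 places methyl groups on lysine 27 of histone H3, and PRC1 places ubiquitin on histone H2A and compacts the marked chromatin, so that both keep developmental genes silent. SWI/SNF, CHD, ISWI and INO80 complexes use ATP to slide, evict or space nucleosomes, and SWI/SNF is known as the opponent of Polycomb at many promoters. CoREST, SIN3, NCoR and the TRIM28 complex are corepressors that, like NuRD, bring histone deacetylases or methyltransferases to DNA. In the developing kidney, Polycomb enzymes and histone deacetylases are known to be most active in nephron progenitors and to decline as nephrons mature.

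Levels are given as BPM, the covered bases of a gene in a library scaled to a library total of 1e+06, with the values in the order controls 5, 7 and 11 and then mutants 6, 8 and 9. Summed coverage was 794 to 1235 megabases per library, and read numbers are unknown. No label states whether different embryos gave the kidneys, so a p-value reflects only the variation among these libraries, which may be technical. Mta2 read 219.7, 198 and 210.5 BPM in control and 139.6, 189 and 146 BPM in mutant kidneys, so every mutant value lay below every control value and the mutant mean was 75.5% of the control mean (exact two-sided permutation p = 0.1, the smallest that 3 against 3 allow). Kidney identity was clear, with the summed level of 15 mature tubule markers at 4465 to 8753 BPM and of 8 podocyte markers at 953 to 1552 BPM, while 8 adrenal markers summed to at most 3.86 BPM. Mutant 6 stood apart on the first principal component of all genes, control 5 on the next, and control 11 on the one after that. Mutant 9 held 346 BPM of 10 skeletal muscle genes against at most 15.0 BPM in the other libraries.

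No chromatin regulator differed between the genotypes past the threshold. Limma called 0 of 53 at an adjusted p of 0.05 (Benjamini-Hochberg over all 13977 genes tested), as it called 0% of all genes, and the smallest adjusted p among the 53 was 0.854. At an unadjusted limma p under 0.05 there were 2 of 53, Arid1a and Rcor1, both higher in mutant kidneys, against 5.60% of all genes (2.90% higher and 2.70% lower). The groups did not overlap for 3 members that were higher in every mutant kidney (Arid1a, Rcor1 and Pcgf6), or 5.66%, against 6.10% of all genes. They did not overlap for 1 member that was lower (Sin3b), or 1.89%, against 5.12%. These shares are near or below those of the genome at large. In the authors' deposited table, an unadjusted p under 0.05 was listed for 2 of the 53, Arid1a (ratio 1.38, p = 0.0202) and Sin3b (ratio 0.84, p = 0.0366), against 2.84% of all genes higher and 2.35% lower by the same rule.

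The intervals of the fit bound the size of a difference in the whole-kidney level, but not within the cells where Six2Cre acts. Like the p-values, they reflect only the variation among these libraries, which may be technical. The targeted gene Mta2 itself had a log2 fold change of only -0.41 in this mixture (SE 0.21, limma adjusted p = 0.887). An interval inside -1 to 1 leaves out a 2-fold difference of the whole-kidney level. The 95% interval of the log2 fold change lay inside these limits for 46 of the 53 members, against 48.0% of all genes. The exceptions were Rcor1 and 6 PRC1 genes (Pcgf1, Pcgf2, Pcgf5, Pcgf6, Cbx7 and Cbx8), all but Rcor1 with a mean under 24 BPM. The median standard error was 0.26 for the members and 0.36 for all genes. These intervals depend on the trend and robust settings of limma. Without those settings the standard error rose from 0.23 to 0.35 for Ncor1 and from 0.29 to 0.36 for Phc2. It fell from 0.40 to 0.26 for Pcgf6. How many members stay inside the limits without those settings was not counted.

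**Figure D1:**
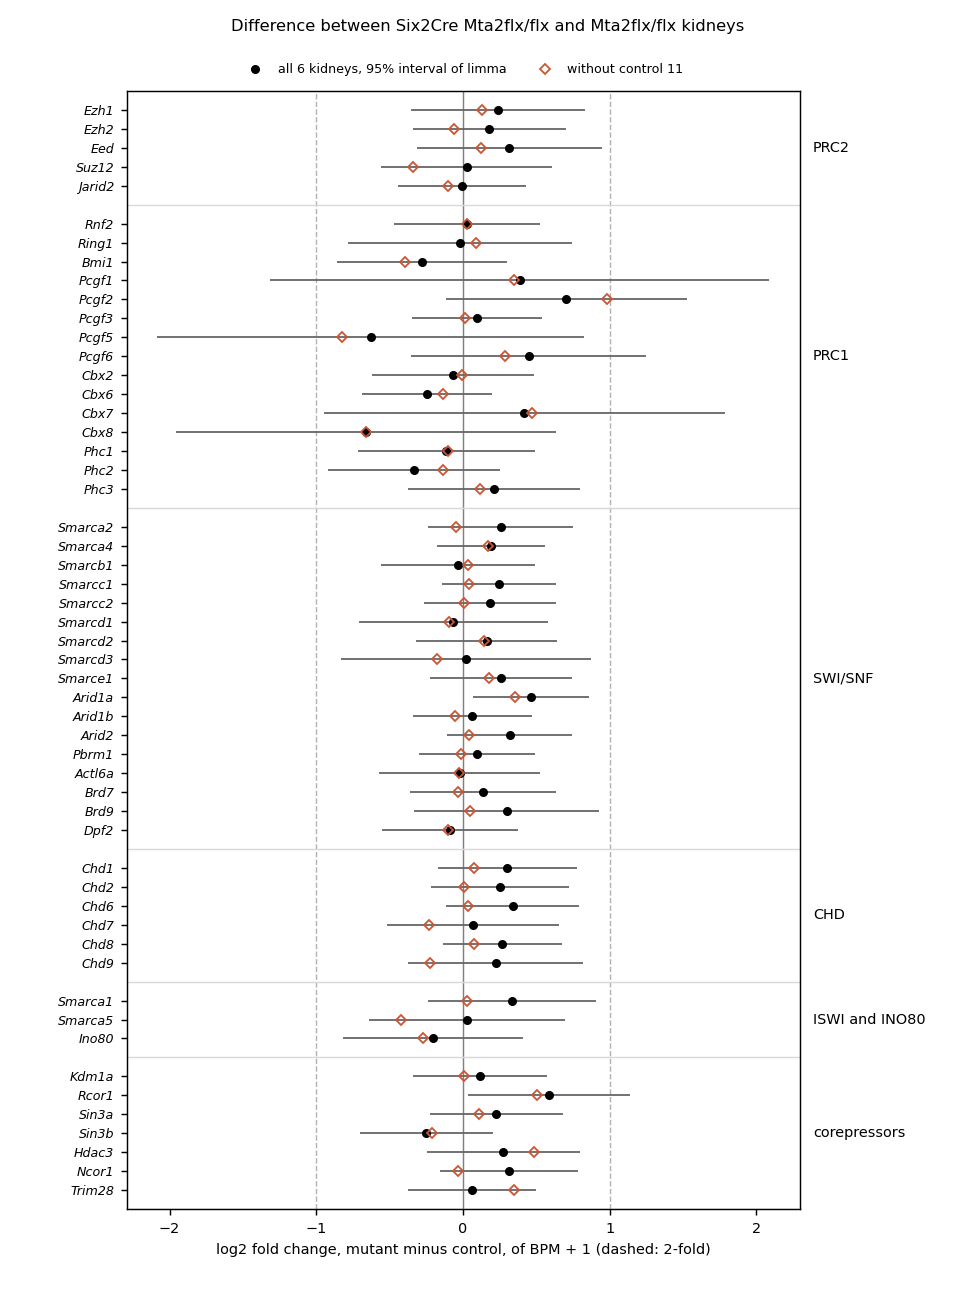
Log2 fold change of BPM + 1, mutant minus control, for each of the 53 chromatin regulators grouped by complex (black points, with the 95% interval of limma as lines, n = 3 each), and the same without control 11 (open diamonds). Arid1a and Rcor1 are the only intervals that leave out 0, and most diamonds lie to the left of their points.

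As a group the regulators read slightly higher in mutant kidneys, and that difference rested largely on control 11. Of the 53, 38 (71.7%) had a log2 fold change above 0, against 52.6% of all genes, and their median was 0.16 against 0.02 for all genes. Without control 11 the count was 29 of 53 (54.7%, against 49.3% of all genes) and the median was 0.0088, with 0 of 53 called against 0.0585% of all genes. Control 11 had the lowest value of the 6 libraries for 29 of the 53 members (54.7%), against 24.0% of all genes. The 53 genes together made up 6992, 6529 and 5359.8 BPM in control and 6926, 6749.7 and 7099 BPM in mutant kidneys, so control 11 was the low library and the other 5 lay close together. Control 11 also had 2.30% of its covered bases on Lars2 (0.0739% to 0.482% elsewhere) and 1.17% on Rmrp (0.495% to 0.641% elsewhere), and 4338 BPM of erythroid genes against 1782 to 3414 BPM, whose part in its low values was not tested. The mean log2 level of 23 genes of dividing cells relative to control ran from 0.14 to 0.23 in mutant and -0.02 to 0.03 in control kidneys, and 13 of 15 mature tubule genes had a log2 fold change below 0 (median -0.58). Of 11 nephron progenitor genes 5 lay above 0 and 6 below (median -0.02). Without overlap 3 of them were higher and 4 lower (6.10% and 5.12% of all genes). The same counts were 0 and 7 of 15 mature tubule, 3 and 0 of 23 dividing-cell, and 3 and 0 of 12 stroma genes. They were 0 and 1 of 8 podocyte, 1 and 0 of 8 collecting duct, and 0 and 0 of 8 endothelium genes. Above 0 were 1 of 8 podocyte, 8 of 8 collecting duct, 8 of 12 stroma and 3 of 8 endothelium genes. Limma called 0 genes of any of these lists. The summed level of the dividing-cell genes overlapped between groups, at 2929 to 3662 BPM in control and 3500.3 to 3686 BPM in mutant kidneys. The part of these lists in the members' values was not tested.

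**Figure D2:**
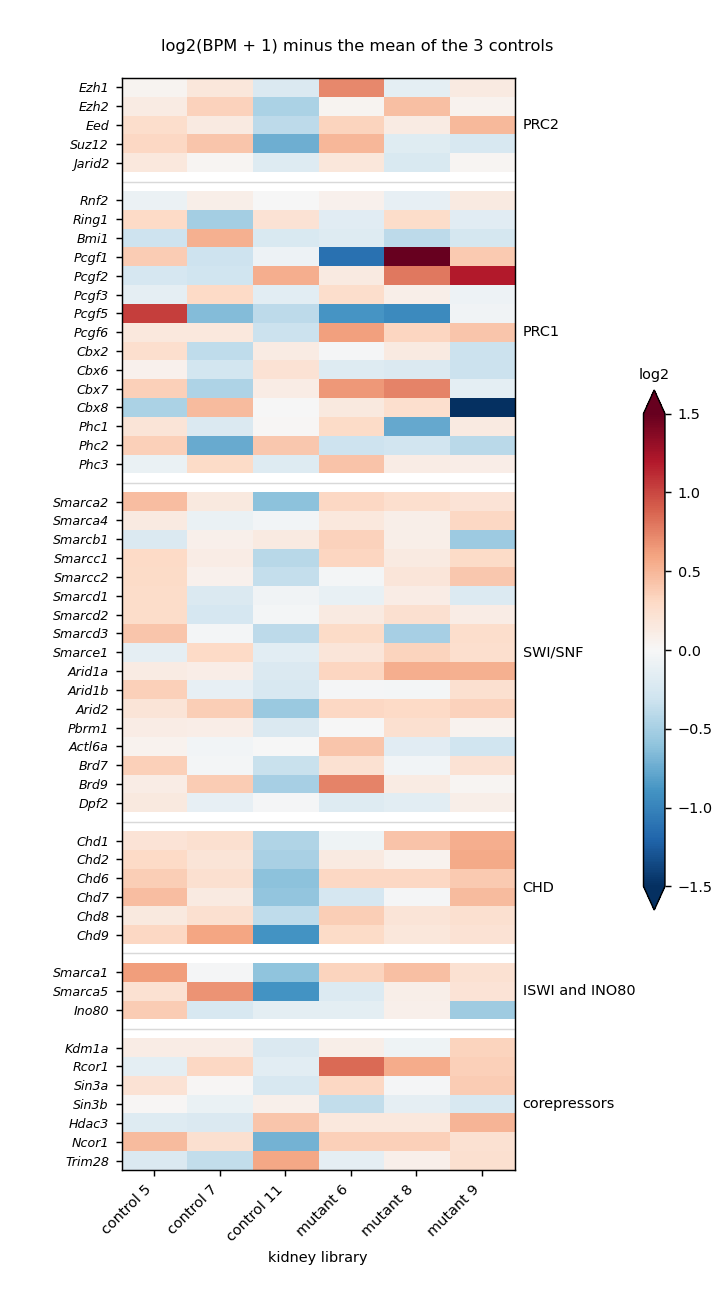
Log2(BPM + 1) of each of the 53 regulators minus the mean of the 3 control kidneys, 1 column per library (red higher, blue lower; the scale ends at -1.5 and 1.5). The control 11 column is blue for all 6 CHD genes and for most PRC2 and SWI/SNF genes, and the strongest colours in the mutant columns are low PRC1 genes such as Pcgf1 and Cbx8.

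The 4 regulators whose groups did not overlap are shown first. Arid1a encodes the DNA-binding subunit that defines the BAF form of SWI/SNF (chromosome 4, 133679008 to 133756769, mm10). It read 264, 260.3 and 208 BPM in control and 302, 354 and 352 BPM in mutant kidneys, with a log2 fold change of 0.46 (SE 0.19, adjusted p = 0.854). Leaving out control 11 gave 0.35 (adjusted p = 0.823). Rcor1 encodes CoREST, the scaffold that joins the histone demethylase LSD1 to deacetylases (chromosome 12, 111039351 to 111115901), and read 46.7, 64.3 and 46.2 BPM in control and 93.7, 76.8 and 66.7 BPM in mutant kidneys, with a log2 fold change of 0.59 (SE 0.27, adjusted p = 0.863). Control 7 and mutant 9 lay close together, so the separation of the groups was narrow. Pcgf6, a RING finger protein of a variant PRC1 (chromosome 19, 47033617 to 47050906), read 19.7, 19.7 and 13.8 BPM in control and 27.2, 22.1 and 23.6 BPM in mutant kidneys, with a log2 fold change of 0.45 (SE 0.40, adjusted p = 0.918). Sin3b, a scaffold of the SIN3 deacetylase complex (chromosome 8, 72723285 to 72758201), read 133, 122 and 138 BPM in control and 101, 119 and 110.0 BPM in mutant kidneys, with a log2 fold change of -0.25 (SE 0.22, adjusted p = 0.918). For all 4 the gap between the groups was smaller than the spread within one of them. Over the alternative fits the adjusted p ranged from 0.573 to 0.973 for Arid1a and from 0.614 to 0.973 for Rcor1.

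**Figure D3:**
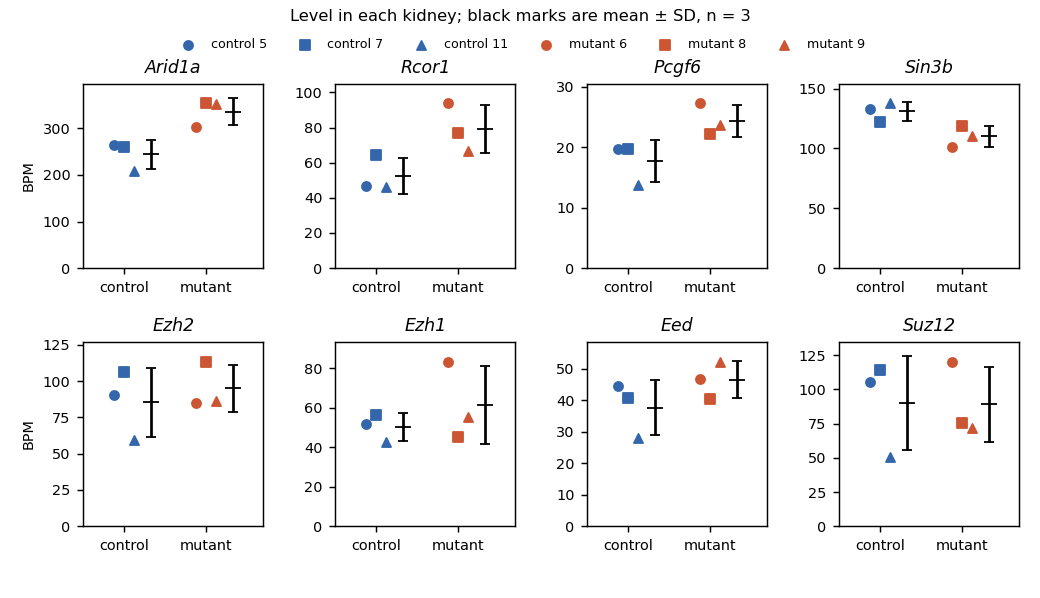
Level in BPM in each kidney (blue control, red mutant; black marks are the mean and SD, n = 3 each) for the 4 members whose groups did not overlap, in the top row, and for 4 PRC2 genes, in the bottom row. The top row separates by small gaps, and in the bottom row control 11 (blue triangle) is the lowest point in each panel.

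The promoters of these 4 genes are shown because they are the members whose kidneys separated by genotype. Each window covers the bases around a start of the gene, most of them upstream (RefSeq, GRCm38.p6), 5′ to 3′ on the gene's strand, and capitals mark the GC box GGGCGG or its reverse complement, the letters bound by Sp1 and related factors. Arid1a has a second window further downstream, with 7 GC boxes, which is not printed.
Rcor1 (chr12:111039117-111039416, plus strand): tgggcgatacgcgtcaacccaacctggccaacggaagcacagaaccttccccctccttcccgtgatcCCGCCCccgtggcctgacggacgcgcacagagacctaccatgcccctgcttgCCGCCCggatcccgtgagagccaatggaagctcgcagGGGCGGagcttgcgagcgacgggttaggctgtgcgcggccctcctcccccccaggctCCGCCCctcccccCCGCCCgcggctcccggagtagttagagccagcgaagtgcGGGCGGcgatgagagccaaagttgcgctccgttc
Arid1a (chr4:133756720-133757019, minus strand): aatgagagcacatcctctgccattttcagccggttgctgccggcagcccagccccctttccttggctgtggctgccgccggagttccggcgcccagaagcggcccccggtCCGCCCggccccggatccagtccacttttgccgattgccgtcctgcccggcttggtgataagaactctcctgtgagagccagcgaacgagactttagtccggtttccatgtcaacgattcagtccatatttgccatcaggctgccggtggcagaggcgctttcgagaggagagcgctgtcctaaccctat
Pcgf6 (chr19:47050857-47051156, minus strand): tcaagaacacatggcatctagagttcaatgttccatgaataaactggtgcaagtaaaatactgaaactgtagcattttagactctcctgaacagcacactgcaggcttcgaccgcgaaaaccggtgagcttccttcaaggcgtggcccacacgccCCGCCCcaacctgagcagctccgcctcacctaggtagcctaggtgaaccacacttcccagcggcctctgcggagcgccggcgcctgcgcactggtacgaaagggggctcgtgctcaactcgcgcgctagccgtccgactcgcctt
Sin3b (chr8:72723020-72723319, plus strand): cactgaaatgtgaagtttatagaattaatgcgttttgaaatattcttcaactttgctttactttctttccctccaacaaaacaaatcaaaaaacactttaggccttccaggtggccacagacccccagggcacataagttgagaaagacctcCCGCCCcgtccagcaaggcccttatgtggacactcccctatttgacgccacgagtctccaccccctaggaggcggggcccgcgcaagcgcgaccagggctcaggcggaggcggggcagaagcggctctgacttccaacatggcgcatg
The GC box occurred 6 times in the Rcor1 window and once in each of the other windows shown, and the windows held 31 CpG dinucleotides for Rcor1, 22 for Arid1a, 22 for Pcgf6 and 14 for Sin3b. Windows were found for 45 of the 53 members (55 windows). Of these 80.0% held a GC box on either strand, against 35.7% of all 32851 windows, which include noncoding genes, and the median number of CpG was 26 against 7. The CCAAT box (CCAAT) was in 34.5% against 37.4%, the E2F motif (TTTCGCGC or TTTGGCGC) in 1.82% against 0.813%, and the NRF1 motif in 1.82% against 0.971%, on either strand, with overlapping copies counted. These are matches of letters and describe the windows alone.

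PRC2 transcripts overlapped between the genotypes for all 5 genes. Ezh2, the main H3K27 methyltransferase (chromosome 6, 47530139 to 47595341), read 90.5, 106 and 59.5 BPM in control and 85.1, 113 and 86.2 BPM in mutant kidneys, with a log2 fold change of 0.18 (SE 0.26, adjusted p = 0.947). Ezh1, the paralogue that prevails in resting tissues (chromosome 11, 101191115 to 101226463), read 51.5, 56.5 and 42.8 BPM in control and 83.3, 45.1 and 55.02 BPM in mutant kidneys, with a log2 fold change of 0.24 (SE 0.29, adjusted p = 0.935). Mutant 6 was the highest library for Ezh1 and mutant 8 for Ezh2, so the mutants did not move together. Eed, which binds the methyl mark and activates the enzyme (chromosome 7, 89954654 to 89980983), read 44.4, 40.7 and 27.9 BPM in control and 46.9, 40.4 and 52.3 BPM in mutant kidneys, with a log2 fold change of 0.32 (SE 0.31, adjusted p = 0.926). Suz12, the structural subunit (chromosome 11, 79993106 to 80034123), read 106, 114 and 50.9 BPM in control and 120.3, 75.1 and 71.7 BPM in mutant kidneys, with a log2 fold change of 0.02 (SE 0.29, adjusted p = 0.994), but its log2 fold change was -0.34 without control 11 (adjusted p = 0.944). For both, control 11 was the lowest of the 6 libraries. Jarid2, which guides PRC2 to its targets (chromosome 13, 44729474 to 44921643), read 188, 172 and 148 BPM in control and 190.5, 144 and 172 BPM in mutant kidneys, with a log2 fold change of -0.0081 (SE 0.21, adjusted p = 0.998). Jarid2 was thus the steadiest of the 5, with a highest value 1.32 times the lowest. Per kilobase of the longest coding transcript, Ezh2 stood above Ezh1 in every library, at 2.10 to 2.83 times its level in control and 1.54 to 3.79 times in mutant kidneys. The median log2 fold change of the 5 was 0.18, and -0.06 without control 11.

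Of the PRC1 genes 7 of 15 had a log2 fold change above 0 and 8 below, with a median of -0.02. Rnf2, the catalytic E3 ligase RING1B, read 77.6, 88.3 and 82.8 BPM in control and 86.4, 76.2 and 90.8 BPM in mutant kidneys, and its highest value was 1.19 times the lowest, the narrowest range of the 53 members. Its paralogue Ring1 ranged from 17.4 to 31.2 BPM, with both ends in control kidneys. Per kilobase Rnf2 was 1.57 to 3.22 times as high as Ring1. Bmi1, the PCGF4 subunit that defines canonical PRC1 and represses the Ink4a/Arf locus, read 51.3, 93.3 and 54.4 BPM in control and 55.8, 48.5 and 53.1 BPM in mutant kidneys, with a log2 fold change of -0.28 (SE 0.29, adjusted p = 0.929). Control 7 alone was high for Bmi1, and the other 5 kidneys lay between 48.5 and 55.8 BPM. Pcgf2, the MEL18 paralogue of Bmi1 (chromosome 11, 97688823 to 97700497), read 14.0, 13.6 and 25.2 BPM in control and 18.6, 30.1 and 39.7 BPM in mutant kidneys, with a log2 fold change of 0.70 (SE 0.41, adjusted p = 0.887). Control 11 lay above mutant 6 there, and leaving it out gave 0.98 (adjusted p = 0.86). Pcgf3 ranged from 136 to 187 BPM, with no order by genotype.

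The CBX proteins read the H3K27 methyl mark, and the PHC proteins polymerise PRC1 into larger bodies. Cbx6 read 176, 139 and 195 BPM in control and 147, 144 and 134 BPM in mutant kidneys, with a log2 fold change of -0.24 (SE 0.22, adjusted p = 0.918). Mutant values were close together and near the lowest control, control 7. Phc2 read 94.7, 43.0 and 97.4 BPM in control and 59.1, 60.2 and 55.3 BPM in mutant kidneys, with a log2 fold change of -0.33 (SE 0.29, adjusted p = 0.914). Its mutant kidneys lay between control 7 and the other 2 controls. Cbx2, Phc1 and Phc3 ranged over 50.5 to 78.5, 34.2 to 72.2 and 40.9 to 63.3 BPM, and overlapped between groups. Cbx8 read 6.79, 14.1 and 9.83 BPM in control and 10.9, 11.9 and 1.09 BPM in mutant kidneys, with a log2 fold change of -0.66 (SE 0.64, adjusted p = 0.922). Its low value came from mutant 9 alone, and without that kidney the log2 fold change was 0.20. Pcgf5, of a variant PRC1, read 9.90, 2.41 and 3.07 BPM in control and 1.88, 1.76 and 4.16 BPM in mutant kidneys, with a log2 fold change of -0.63 (SE 0.72, adjusted p = 0.931). Control 5 was its highest library, and the other 5 overlapped. Cbx7 ranged from 2.20 to 6.44 BPM, and Pcgf1 was listed at 0 in mutant 6 and ranged from 0.753 to 7.01 BPM in the other libraries. At these levels 1 BPM stands for 794 to 1235 covered bases, and Pcgf1, Pcgf5, Cbx7 and Cbx8 had at most 17372 covered bases in any library, so their fold changes rest on little sequence.

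Some SWI/SNF genes had levels among the highest of the set, while Smarcd1 and Smarcd3 averaged only 11.6 and 11.1 BPM per kilobase. Per kilobase, Smarcc1 averaged 72.4 BPM, Smarca4 63.0 and Smarcb1 53.6 over the 6 kidneys, below only Trim28, and their ranges overlapped. Smarca4 encodes BRG1, the main ATPase, and read 412, 351 and 364 BPM in control and 419, 399 and 466 BPM in mutant kidneys, with a log2 fold change of 0.19 (SE 0.18, adjusted p = 0.922). Smarca2, the alternative ATPase BRM that is known to gain in differentiated cells, read 164, 131 and 77.2 BPM in control and 147, 142 and 136 BPM in mutant kidneys, with a log2 fold change of 0.26 (SE 0.24, adjusted p = 0.922), with control 11 well under the other 5 kidneys. Per kilobase BRG1 transcript stood at 2.34 to 4.39 times BRM in control and 2.62 to 3.17 times in mutant kidneys, so the balance of the ATPases overlapped. The core subunit Smarcc1 read 467, 409 and 284 BPM in control and 472, 415 and 463 BPM in mutant kidneys, with a log2 fold change of 0.25 (SE 0.19, adjusted p = 0.909). Smarce1, the HMG-box subunit, read 82.3, 112 and 81.1 BPM in control and 103, 115 and 109 BPM in mutant kidneys, with a log2 fold change of 0.26 (SE 0.24, adjusted p = 0.92). Control 11 was the lowest library for Smarca2, Smarcc1 and Smarce1. Leaving it out gave log2 fold changes of 0.17 for Smarca4, 0.04 for Smarcc1, 0.18 for Smarce1 and -0.05 for Smarca2.

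No subunit that marks a form of SWI/SNF was called. Arid1a and Arid1b are alternative subunits of BAF, and Arid1b read 361, 257 and 238 BPM in control and 276, 275 and 331 BPM in mutant kidneys, so it overlapped where Arid1a did not. The ratio of Arid1a to Arid1b per kilobase was 1.01, 1.40 and 1.21 in control and 1.51, 1.78 and 1.47 in mutant kidneys. It was the only 1 of 8 paralogue ratios computed without overlap between groups. Separation of 3 against 3 has an exact two-sided permutation p of 0.1 for any 1 ratio, and no share over other gene pairs was computed. The ratio also reuses the Arid1a values, which separated alone. Arid2, the subunit that defines PBAF, read 307, 347 and 183 BPM in control and 334, 331 and 342 BPM in mutant kidneys, with a log2 fold change of 0.32 (SE 0.21, adjusted p = 0.896), but without control 11 the log2 fold change was 0.04. Pbrm1 ranged from 239 to 327 BPM and Brd7 from 72.3 to 118 BPM, with control 11 lowest in both. Brd9, of the noncanonical form, read 46.6, 56.4 and 30.3 BPM in control and 72.6, 47.1 and 43.8 BPM in mutant kidneys, with a log2 fold change of 0.30 (SE 0.31, adjusted p = 0.929), with mutant 6 highest. Arid2, Pbrm1, Brd7 and Brd9 each overlapped between groups. The other 7 SWI/SNF genes (Smarcb1, Smarcc2, Smarcd1, Smarcd2, Smarcd3, Actl6a and Dpf2) had log2 fold changes of -0.09 to 0.18. In all, 13 of 17 genes lay above 0 (median 0.16), and 9 of 17 without control 11 (median 0.0044).

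All 6 CHD genes had a log2 fold change above 0 and all 6 were lowest in control 11. Chd6 read 257, 234 and 129 BPM in control and 246, 246 and 260.2 BPM in mutant kidneys, with a log2 fold change of 0.34 (SE 0.22, adjusted p = 0.896). Chd8, a remodeller that binds beta-catenin, read 296, 318 and 206 BPM in control and 347, 308 and 317 BPM in mutant kidneys, with a log2 fold change of 0.27 (SE 0.20, adjusted p = 0.909). Chd1, which binds methylated lysine 4 of histone H3, read 159.9, 164 and 101 BPM in control and 132, 186 and 203 BPM in mutant kidneys, with a log2 fold change of 0.30 (SE 0.23, adjusted p = 0.909). The 2 other controls lay within or close to the mutant range in each of these. Chd2, its close paralogue, read 182, 168 and 105 BPM in control and 163, 153 and 219.5 BPM in mutant kidneys, with a log2 fold change of 0.25 (SE 0.23, adjusted p = 0.919). Chd9 read 138, 168 and 59.2 BPM in control and 136, 125 and 129 BPM in mutant kidneys, and control 11 held less than any other kidney. Chd7, the gene of CHARGE syndrome, in which the kidney can be malformed, ranged from 42.7 to 90.6 BPM and overlapped between groups. The median of the 6 was 0.26 with all kidneys and 0.02 without control 11.

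Among the ISWI and INO80 ATPases, Smarca1 read 98.6, 62.4 and 41.2 BPM in control and 79.8, 87.0 and 74.2 BPM in mutant kidneys, with a log2 fold change of 0.33 (SE 0.28, adjusted p = 0.914). Smarca5, the more widely expressed ISWI enzyme in most tissues, read 57.5, 78.1 and 25.7 BPM in control and 42.1, 52.1 and 56.2 BPM in mutant kidneys, and its log2 fold change of 0.03 became -0.42 without control 11. Smarca5 per kilobase was 0.41 to 0.98 times Smarca1 in these kidneys, but with the union of exons as the length it reached 1.21 times, so their order depends on the length used. Ino80 ranged from 34.6 to 66.4 BPM and its log2 fold change was -0.20.

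The corepressor genes other than Rcor1 and Sin3b overlapped between groups. Kdm1a, the lysine demethylase LSD1 that CoREST carries, ranged from 107 to 157 BPM, with a log2 fold change of 0.12 against the 0.59 of its scaffold Rcor1. Sin3a read 148, 128 and 107 BPM in control and 158, 125 and 165 BPM in mutant kidneys, with a log2 fold change of 0.23 (SE 0.23, adjusted p = 0.926), and thus lay on the other side of 0 from its paralogue Sin3b. Per kilobase the Sin3a to Sin3b ratio was 0.62 to 0.88 in control and 0.84 to 1.23 in mutant kidneys, and the groups overlapped only because mutant 8 lay below control 5. Hdac3, the deacetylase of the NCoR complex, read 63.5, 62.1 and 97.1 BPM in control and 81.4, 80.9 and 104 BPM in mutant kidneys, with a log2 fold change of 0.28 (SE 0.26, adjusted p = 0.921). Ncor1, its scaffold, read 382, 325 and 169 BPM in control and 354, 352 and 324 BPM in mutant kidneys, with a log2 fold change of 0.31 (SE 0.23, adjusted p = 0.909), and -0.04 without control 11. Control 11 was the highest control for Hdac3 and the lowest library for Ncor1. Trim28, which links zinc finger repressors to H3K9 methylation, read 269, 242 and 466 BPM in control and 283, 329 and 368 BPM in mutant kidneys. It had the highest level per kilobase of the 53 genes (mean 101 BPM, range 74.6 to 144), and its log2 fold change was 0.06, or 0.35 without control 11 (adjusted p = 0.86).

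**Figure D4:**
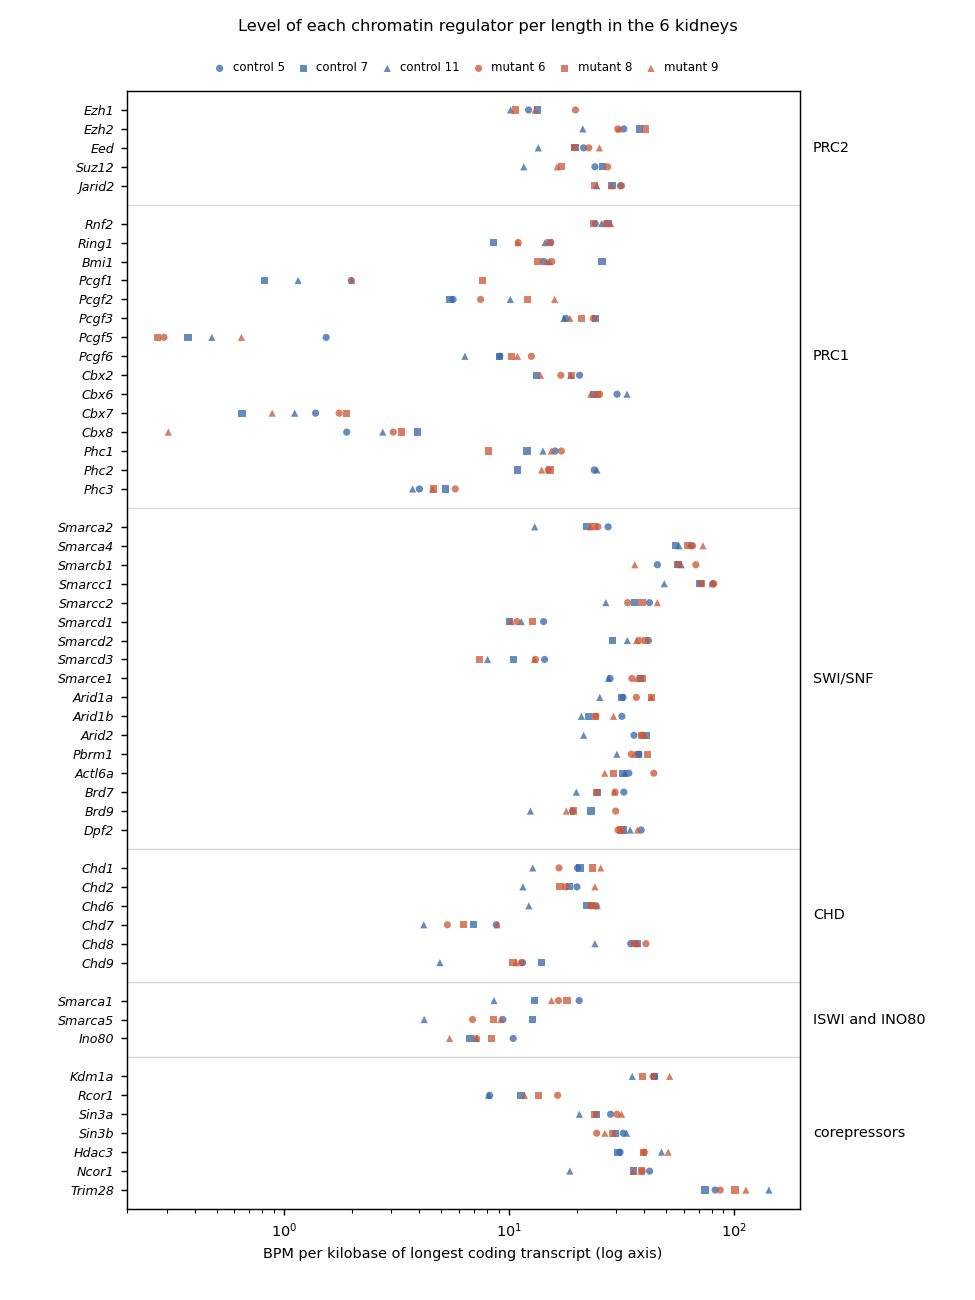
Level per kilobase of the longest coding transcript (BPM, log axis) of each regulator in each of the 6 kidneys, grouped by complex (blue control, red mutant; Pcgf1 at 0 in mutant 6 is not drawn). Trim28, Smarcc1, Smarca4 and Smarcb1 lie highest, and Cbx8, Pcgf1, Cbx7 and Pcgf5 lie lowest.

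Levels per kilobase spanned from 0.599 BPM for Pcgf5 to 101 BPM for Trim28. The lowest were Pcgf5, Cbx7 (1.28), Pcgf1 (2.27), Cbx8 (2.54) and Phc3 (4.65), all of PRC1, in an order that was the same with the union of exons as the length. The 6 highest (Trim28, Smarcc1, Smarca4, Smarcb1, Kdm1a at 43.3 and Hdac3 at 40.1) also kept their order. Neighbours in this order overlapped over the 6 kidneys. Whether the authors counted introns is not given in the sources used here, which limits comparisons between genes.

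Members differed from each other in how they stood in control 11, and this varied with the base composition and length of the transcript. On the log2 scale Trim28 read 0.87 higher in control 11 than the mean of controls 5 and 7, Pcgf2 0.82, Hdac3 0.62 and Phc2 0.60, whereas Smarca5 and Chd9 differed by -1.35, Suz12 by -1.09 and Ncor1 by -1.06. Across the 53 members this difference correlated with the GC content of the longest coding transcript (Pearson r = 0.60, Spearman rho = 0.60) and with its log2 length (r = -0.47, rho = -0.49). The points share the same 3 libraries and are genes, not replicates, and GC content and length were themselves related (r = -0.31). Of the 13 members with at least 55% GC, 2 read lower in control 11 than in both other controls (15.4%, against 20.0% of all such genes). The share was 57.1% of 14 members with 50 to 55% GC (33.5% of all such genes), 86.7% of 15 with 45 to 50% (48.2%) and 72.7% of 11 under 45% (63.0%), so it did not climb evenly. By transcript length it was 33.3% of 3 members under 2 kilobases (35.7% of all such genes), 33.3% of 21 with 2 to 4 (34.0%), 9 of 12 with 4 to 6 (44.7%), 57.1% of 7 with 6 to 8 (56.2%) and 100% of 10 with 8 or more (67.9%). For the difference of control 7 from controls 5 and 11, r with GC content was -0.56, and for control 5 it was -0.11. Controls 7 and 11 enter each other's difference with a minus sign, so their opposite signs are partly built in. These values cannot tell which of the 2 libraries departs. For the mutant kidneys r lay between -0.16 and 0.16. Over 12730 genes r with GC content was 0.36 for control 11 and -0.30 for control 7. By r both relations were weaker over those genes than among the members, and r with length was -0.12 for control 11. By length class, the median difference of control 11 over those genes still went from 0.02 in the shortest class to -0.44 in the longest. Among the members r with length was also 0.31 for control 7, 0.23 for control 5 and -0.27 for mutant 8.

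**Figure D5:**
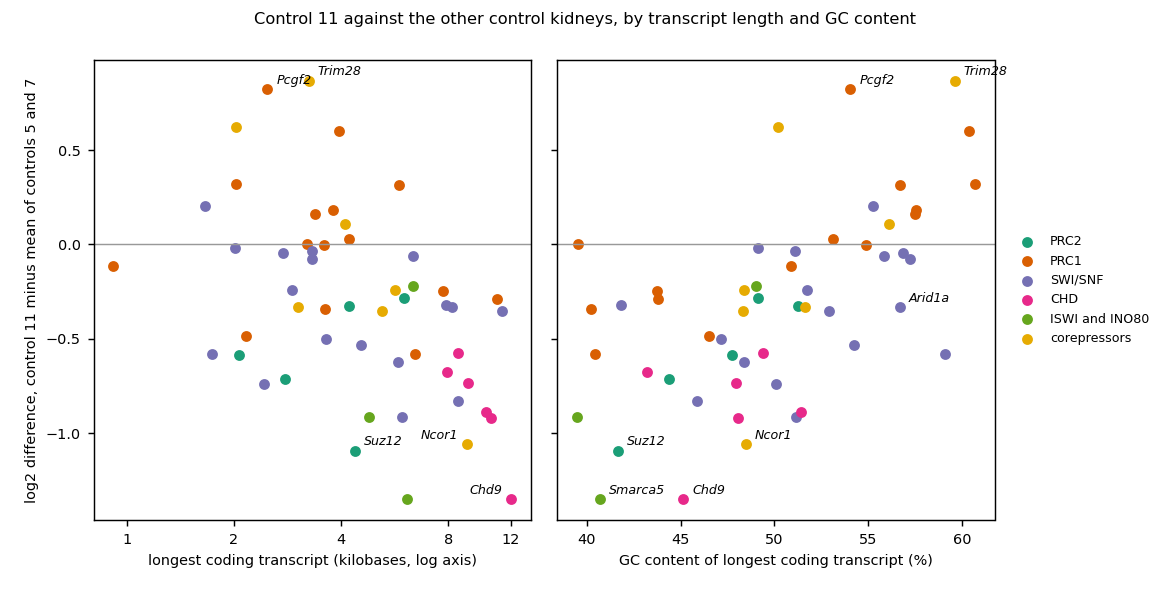
Log2 level in control 11 minus the mean of controls 5 and 7 for each of the 53 members (1 point per gene, coloured by complex) against the length of its longest coding transcript (left, log axis) and its GC content (right). Points fall from left to right with length and rise with GC content, from -1.35 for Smarca5 and Chd9 to 0.87 for Trim28.

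Removing a smooth trend on GC content and length from every library, a choice made after seeing the data, left the members' median log2 fold change at 0.14 with all 6 kidneys and the CHD median at 0.14, and 0 of 53 passed. With it Arid1a had a log2 fold change of 0.45 (adjusted p = 0.606), while Rcor1 had 0.53 and Pcgf2 0.80, both with an adjusted p of 0.718.

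Partners of these complexes that are not among the 53 likewise gave 0 calls. Over all genes 52.6% had a log2 fold change above 0. Control 11 had a mean log2 level, relative to the control mean, of -0.22 for the ISWI and INO80 partners. It was -0.19 for the PRC2, -0.17 for the trithorax and -0.15 for the corepressor list, and -0.05 and -0.04 for the SWI/SNF and PRC1 lists. Counts without control 11 were not made for these lists. Of the 7 other PRC2 genes tested 3 lay above 0 and 4 below (median -0.12). Phf19, a Polycomb-like protein that recruits PRC2, read 20.7, 17.8 and 18.8 BPM in control and 11.8, 7.17 and 16.5 BPM in mutant kidneys. Its log2 fold change was -0.71 (adjusted p = 0.896), and that of Mtf2 was 0.37 (0.12 without control 11). Of 14 PRC1 partners 11 lay above 0 (median 0.09), with Mga, of a variant PRC1, at 0.43 (0.17 without control 11) and Auts2 at -0.65. Of 11 other SWI/SNF genes 9 lay above 0 (median 0.32), and 4 were higher without overlap (6.10% of all genes were). Of those 4, Ss18l1 separated only by 10.7 BPM in control 11 against 10.8 BPM in mutant 8, and Dpf1 read at most 3.42 BPM. Without overlap there were also 2 lower genes of the PRC2 list, Phf19 and Rbbp4, and Rbbp4 is a NuRD subunit as well. There were 1 higher PRC1 partner, and 2 higher and 1 lower among the ISWI and INO80 partners, against 5.12% of all genes lower. The corepressor partners and trithorax genes had 0. Phf10, of PBAF, read 61.9, 64.6 and 48.3 BPM in control and 80.8, 76.9 and 82.4 BPM in mutant kidneys, a log2 fold change of 0.46 (adjusted p = 0.887), and Bcl7c was at -0.94. Of 19 ISWI and INO80 partners and related remodellers 13 lay above 0 (median 0.18). Hells, a remodeller of dividing cells that aids DNA methylation, read 66.7, 52.4 and 39.7 BPM in control and 75.3, 74.4 and 105 BPM in mutant kidneys, a log2 fold change of 0.68 (adjusted p = 0.854). Bptf was at 0.50, and at 0.15 without control 11. Of 25 corepressor partners 17 lay above 0 (median 0.15), with Setdb1, the methyltransferase that Trim28 recruits, at 0.35 (0.18 without control 11) and Arid4b at 0.43 (-0.05 without control 11). A last list held 16 tested trithorax genes, H3K27 demethylases and members of an H2A deubiquitinase complex (Bap1, Asxl1 and Asxl2). Of these 12 lay above 0 (median 0.12), with Bap1 at -0.32 and Ash1l at 0.34 (0.02 without control 11).

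Genes that Polycomb silences in most tissues were listed at or near 0 in both genotypes. Of 20 textbook targets, mostly regulators of other lineages and posterior Hox genes, 12 were listed at 0 in all 6 libraries and 17 stayed under 1 BPM in all of them. Their summed level was 6.08, 1.60 and 1.45 BPM in control and 0.518, 1.74 and 1.25 BPM in mutant kidneys. Only Cdkn2b passed the filter, at 4.73, 1.22 and 0.0721 BPM in control and 0, 0 and 1.16 BPM in mutant kidneys, with the highest value in control 5. Cdkn2a, the classic target of Bmi1, was listed at 0 in every library. A low value in this table need not mean a silent gene, since Sap18, a widely used corepressor subunit, was also listed at only 0 to 0.248 BPM.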

How the data were processed

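Total RNA from 3 kidneys of each genotype was depleted of ribosomal RNA, and libraries were made with the Ion Total RNA-seq kit, per the labels' protocols. Only mm10 and bedtools appear in the processing record, per the submitters' processing notes; the sources used here name no aligner or gene annotation. The authors' deposited signal is base coverage summed over each gene plus 1, multiplied by a constant for its library, since dividing a column by its minimum left 100% whole numbers (tolerance 0.001). The authors' table also has the ratio of group means and an unadjusted p-value, both as deposited.

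The constant was removed and covered bases were scaled to 1e+06 per library (BPM). A gene needed 1 BPM or more in 3 or more libraries, which 13977 met. Genotypes were compared in limma 3.58.1 (R 4.3.3) on log2(BPM + 1), computed here from the deposited coverage, with its trend and robust settings, two-sided, without covariates, at a threshold of 0.05. The pseudocount understates the fold change of low genes. Coverage is not counts, so no count model was run. Coordinates, lengths and GC content came from GENCODE M21, promoters from RefSeq. Named with fold and p were the 25 members of smallest unadjusted p, all PRC2 genes, and at most 2 partners per list; folds of Smarca5, Ino80, Kdm1a and Trim28 were added after their values were seen. The members and lists were chosen with earlier results of these data known. Alternatives varied the filter, pseudocount, normalization, trend, library weights, libraries left out, and a GC and length trend.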

Additional observations from a re-analysis of the deposited data

How the results depend on the processing

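In 14 alternative fits 0 members were called, and 0 of the 419 values of named genes passed the threshold (smallest adjusted p 0.422). Among all genes, 783 of which had an unadjusted limma p under 0.05 and 0 an adjusted one, calls numbered 1 with quantile normalization, 1 without the trend, 4 with library weights, 11 with the GC and length trend removed (chosen after seeing the data), 22 without both control 11 and mutant 6, and 0 to 8 with 1 library left out (8 without control 11, 3 without mutant 8). Members higher without overlap numbered 8 of 53 without both control 11 and mutant 6 (17.7% of all genes) and 4 to 10 with 1 library left out (10.2% to 12.7%). Members lower without overlap numbered 6 without both (17.7%), 2 with the GC and length trend removed (5.43%), and 1 to 3 with 1 library left out (8.55% to 11.1%). With 1 library left out the median log2 fold change was 0.0088 to 0.24 for the members, -0.059 to 0.33 for PRC2, -0.17 to 0.057 for PRC1, 0.0044 to 0.26 for SWI/SNF, 0.021 to 0.41 for CHD, -0.28 to 0.32 for ISWI and INO80 and 0.11 to 0.30 for the corepressors. Without both control 11 and mutant 6 it was 0.0046 for the members, -0.11 for PRC2, -0.012 for SWI/SNF and 0.066 for the corepressors. Some directions turned. With 1 library left out, log2 fold changes ran from -0.038 to 0.55 for Ncor1, -0.048 to 0.49 for Smarca2, -0.059 to 0.35 for Ezh2 and -0.34 to 0.23 for Suz12, each lowest without control 11. They ran from -0.0029 (without mutant 6) to 0.43 for Ezh1, -1.12 to 0.20 (without mutant 9) for Cbx8 and -0.10 to 0.10 for Jarid2. Without both they were -0.060 for Ncor1, -0.076 for Smarca2, -0.17 for Brd9, -0.11 for Ezh1 and -0.58 for Suz12. Suz12 was also at -0.021 with quantile normalization, -0.17 with library weights and -0.088 with the trend removed. The cause was not tested. With a minimum of 5 BPM, 50 members were tested. No paired analysis was possible because the groups share no replicate number. Low coverage limits Pcgf1, Pcgf5, Cbx7 and Cbx8.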
